A study of Homo sapiens with 3 samples.

Results

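Chromosome 17 held 505 of the 14365 peaks of codanin-1 and 157 of the 5164 peaks of GATA1 in K562 cells. K562 is a human erythroleukaemia cell line, and it is known for an unbalanced karyotype in which chromosome arms differ in copy number. Peaks were taken by position alone, as all rows of both lists on chromosome 17 of the build hg19. They were divided by midpoint into the short arm (below 22.2 Mb), which is reported as reduced in copies in this line, and the long arm (above 25.3 Mb). The short arm held 57 codanin-1 and 23 GATA1 peaks, and the long arm 446 codanin-1 and 122 GATA1 peaks. Another 2 codanin-1 and 12 GATA1 peaks lay between these limits, around the centromere, and were counted with neither arm.

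The lists come from chromatin immunoprecipitation and sequencing (ChIP-seq) of formaldehyde-fixed, untreated K562 cells, with 1 library per antibody. The codanin-1 library was made with the antibody Cod1, raised against an N-terminal peptide of the protein, and the GATA1 library with the antibody N6. The library of non-specific rabbit IgG, the remaining one of the 3 in the series, was not analysed here. No value has a replicate error, depth per library is unknown, and all intervals below cover counting error only. Peaks that lie close together are not independent, so each p-value describes these lists and not the spread between cultures.

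Codanin-1, the product of CDAN1, binds the histone chaperone ASF1 and is mutated in congenital dyserythropoietic anaemia type I. GATA1 is a zinc-finger transcription factor that switches on erythroid genes and is highly active in K562 cells. A peak caller compares reads at a site with a background, so the number of peaks it can call in a region rises with the reads that region yields, and a region present in more copies yields more reads. Copy number was not measured in these files, and its part in any difference between the arms was not tested. Genes are not assigned to peaks and no sequence is shown, because a genome of the build hg19 was not used here.

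Both proteins had fewer peaks per Mb on the short arm than on the long arm. The density of codanin-1 peaks was 2.57 per Mb on the short arm (57 peaks, 95% exact Poisson interval 1.94 to 3.33), against 7.98 per Mb on the long arm (446 peaks, 7.26 to 8.76). The ratio of short to long arm was 0.322 (95% exact interval 0.240 to 0.424, exact binomial test, two-sided, adjusted p = 1.7e-19). GATA1 had 1.04 peaks per Mb on the short arm (23 peaks, 0.657 to 1.55), against 2.18 per Mb on the long arm (122 peaks, 1.81 to 2.61). Its ratio was 0.474 (0.290 to 0.745, exact binomial test, two-sided, adjusted p = 0.0021). All p-values were adjusted over the 7 tests of the chromosome by the Benjamini-Hochberg method. With peaks limited to a −log10 q of at least 2, the codanin-1 ratio was 0.493 (adjusted p = 0.026, exact binomial test), and the GATA1 ratio of 0.340 no longer passed (adjusted p = 0.056, exact binomial test).

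The arms departed from the other chromosomes in opposite directions for both proteins. For codanin-1 the short arm had 0.548 times (95% exact interval 0.415 to 0.711) and the long arm 1.71 times (1.55 to 1.87) the 4.68 peaks per Mb of the other chromosomes, Y and M left out. For GATA1 the short arm had 0.622 times (0.394 to 0.934) and the long arm 1.31 times (1.09 to 1.57) the 1.67 peaks per Mb there. Chromosome 22 had 18.6 GATA1 peaks per Mb, more than any other chromosome. Without chromosomes 9 and 22, the short arm's GATA1 density was 0.785 times that of the other chromosomes, with an interval of 0.497 to 1.18 that includes 1. The chromosome as a whole had densities of 6.22 per Mb for codanin-1 and 1.93 per Mb for GATA1 and ranked 8 of 24 chromosomes in each list.

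**Figure D1:**
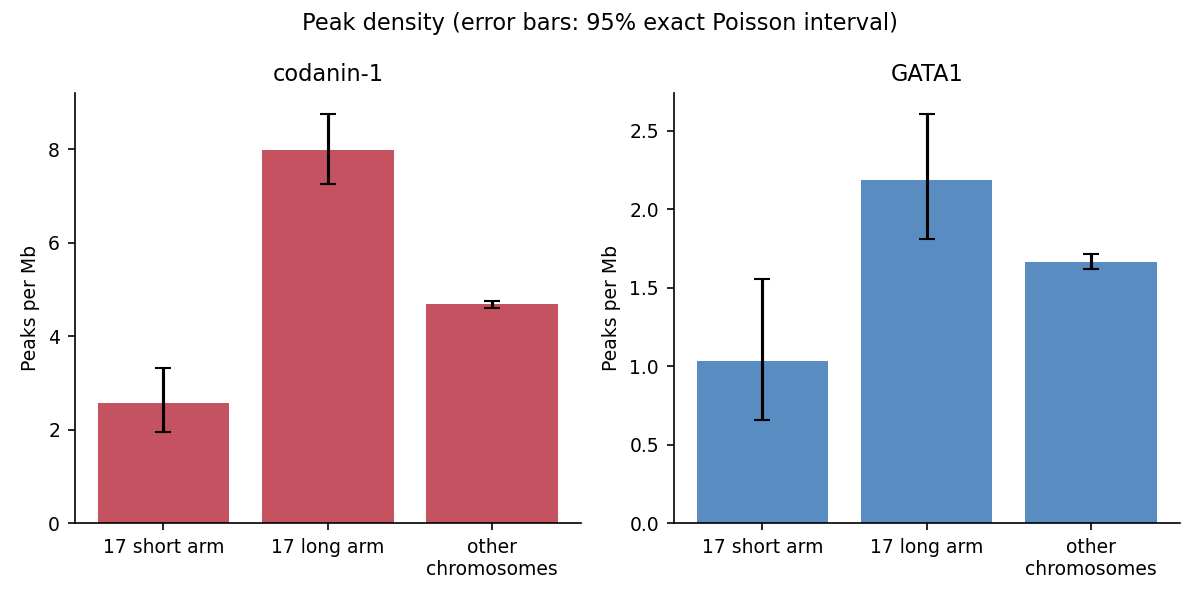
Peaks per Mb (y axis) on the short arm of chromosome 17, its long arm and the other chromosomes, for codanin-1 (left) and GATA1 (right). Bars are single values, with 95% exact Poisson intervals as error bars. The short arm lies lowest in both panels, at 2.57 and 1.04 peaks per Mb, and the long arm highest, at 7.98 and 2.18.

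The number of codanin-1 peaks per GATA1 peak was 2.48 on the short arm (57 to 23) and 3.66 on the long arm (446 to 122). The odds ratio was 0.678, and its 95% exact interval of 0.393 to 1.20 includes 1 (two-sided Fisher's exact test, adjusted p = 0.18). A difference between the proteins in how they were spread over the arms was therefore not detectable with these counts, and the interval allows both a deficit of codanin-1 on the short arm and a slight excess. The odds ratio depended on which peaks were counted. It was 1.45 at a −log10 q of at least 2 and 0.953 at a fold of at least 4, and neither passed the threshold. When the peaks between the arms were counted with the nearer arm, an alternative chosen after seeing the data, the odds ratio was 0.497 (0.302 to 0.830, two-sided Fisher's exact test, adjusted p = 0.016). The 9 GATA1 peaks this added to the short arm form 1 run of 13.5 kb, and the test counts them as independent.

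Along the short arm the peaks were unevenly placed, and 1 window of 1 Mb next to the centromere held a large share of them. The window from 21000001 to 22000000 held 17 of the 57 codanin-1 peaks (29.8%) and 11 of the 23 GATA1 peaks (47.8%). The first window, at the end of the arm, followed with 6 codanin-1 and 5 GATA1 peaks. The windows starting at 4 Mb and 18 Mb held 4 codanin-1 peaks each, and no other short-arm window held more than 1 GATA1 peak. Of the 22 whole windows of the short arm, 3 held no codanin-1 peak and 13 held no GATA1 peak, and the median window held 1.5 codanin-1 and 0 GATA1 peaks. Of the 55 whole windows of the long arm, 4 held no codanin-1 peak and 17 no GATA1 peak, and the median window held 8 and 1. At least 5 codanin-1 peaks were found in 2 short-arm and 40 long-arm windows.

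The fullest windows of the long arm coincided only in part between the proteins. For codanin-1 they were the windows from 36000001 to 37000000 with 23 peaks and from 34000001 to 35000000 with 22, followed by those starting at 72 Mb and 80 Mb with 17 each. For GATA1 they were the windows from 45000001 to 46000000 with 12 peaks, from 79000001 to 80000000 with 10 and from 80000001 to 81000000 with 9. The window starting at 80 Mb was thus among the fullest in both lists, and the one at 34 Mb followed for GATA1 with 8 peaks. The window with most codanin-1 peaks held 3 GATA1 peaks, and the window with most GATA1 peaks held 13 codanin-1 peaks. Across windows the counts of the 2 lists had a Spearman's rho of 0.56 on the short arm (22 windows) and 0.77 on the long arm (55 windows). These are descriptions: the windows share their libraries, and mappability and copy number were not taken into account. On the short arm Pearson's r was 0.94, and 0.67 without the window at 21 Mb.

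**Figure D2:**
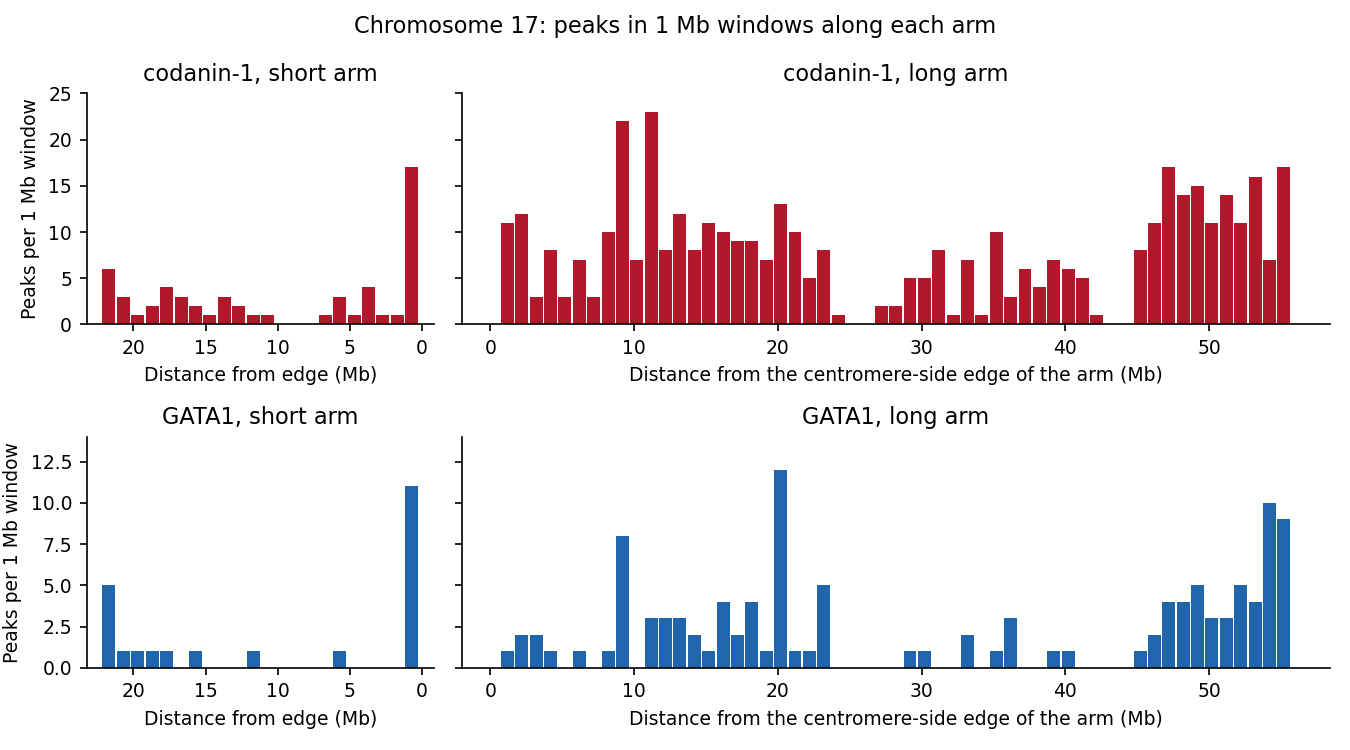
Peaks in each whole 1 Mb window (y axis) against the distance of the window's centre from the centromere-side edge of the arm in Mb (x axis), with the short arm on the left and the long arm on the right, codanin-1 above and GATA1 below. The short arm has 1 high window beside the centromere, with 17 codanin-1 and 11 GATA1 peaks. The long arm is thin in the middle in both panels, and next to the centromere it is filled for codanin-1 but not for GATA1.

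With the fullest window of each arm left out, both density ratios were lower. The ratio of short to long arm was then 0.245 for codanin-1 (95% exact interval 0.172 to 0.339) and 0.282 for GATA1 (0.142 to 0.513). With the ends of the chromosome and the flanks of the centromere left out, the ratios were 0.226 and 0.180. The GATA1 ratio thus moved by more than 1.5 times with either change, and the window at 21 Mb was left out in both.

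Dividing the chromosome into stretches, with limits set after the windows were seen, separated a sparse short-arm interior from a long arm that was itself uneven. Between 1 Mb and 21 Mb the short arm held 34 codanin-1 peaks (1.70 per Mb) and 7 GATA1 peaks (0.350 per Mb). The proximal long arm, up to 49 Mb, held 228 codanin-1 (9.62 per Mb) and 58 GATA1 peaks (2.45 per Mb). The middle of the long arm, from 49 Mb to 70 Mb, held 74 codanin-1 (3.52 per Mb) and 10 GATA1 peaks (0.476 per Mb). From 70 Mb to the end there were 144 codanin-1 (12.9 per Mb) and 54 GATA1 peaks (4.84 per Mb). The middle of the long arm was thus 0.366 times as dense as its proximal part for codanin-1 (95% exact interval 0.278 to 0.478) and 0.195 times for GATA1 (0.0887 to 0.384).

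The short-arm interior lay below every stretch of the long arm for codanin-1. By its limits it leaves out the fullest windows of its arm, whereas the long-arm stretches keep their dense ends. Its density was 0.177 times that of the proximal long arm (0.119 to 0.254), 0.482 times that of the middle (0.312 to 0.733) and 0.132 times that of the distal part (0.0879 to 0.193). For GATA1 it was 0.143 times the proximal (0.0551 to 0.314) and 0.0724 times the distal long arm (0.0278 to 0.160). Against the middle of the long arm the GATA1 ratio was 0.735, and its interval of 0.237 to 2.14 is too wide to show a difference. The limits of all these stretches were drawn after the windows were seen. Intervals of these ratios, and of those within the long arm, therefore cannot serve as a comparison.

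**Figure D3:**
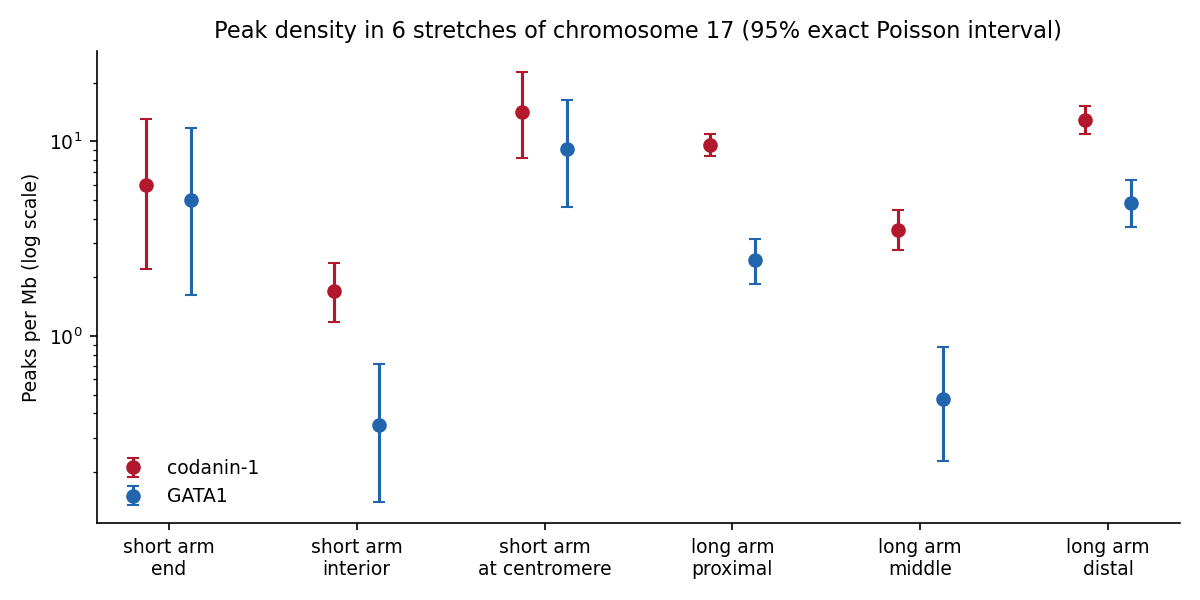
Peaks per Mb on a log scale (y axis) in 6 stretches of chromosome 17 from the end of the short arm to the end of the long arm (x axis), codanin-1 in red and GATA1 in blue. Points are single values with 95% exact Poisson intervals, in stretches whose limits were set after the windows were seen. Both proteins are lowest in the short-arm interior, at 1.70 and 0.350 peaks per Mb, and next lowest in the middle of the long arm, at 3.52 and 0.476.

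The ends of the chromosome, with limits set after the windows were seen, held nearly as many GATA1 as codanin-1 peaks. The first 1 Mb held 6 codanin-1 and 5 GATA1 peaks, and the stretch from 79 Mb to the end held 27 and 23, that is 1.20 and 1.17 codanin-1 peaks per GATA1 peak. That last stretch was not even. Its window starting at 79 Mb held 7 codanin-1 and 10 GATA1 peaks, and the one starting at 80 Mb held 17 and 9. These ratios were not tested. In the short-arm interior the ratio was 4.86 (34 to 7), and in the middle of the long arm 7.40 (74 to 10). The ratio between the lists also depends on their unknown depths, so only its variation along the chromosome can be read.

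Windows empty in both lists formed 1 run on the short arm and 2 on the long arm. On the short arm the 3 windows from 12000001 to 15000000 held no peak. The longest peak-free stretch of the arm ran from 11481473 to 15165881 (3.68 Mb), starting directly after the strongest codanin-1 peak of the chromosome. On the long arm the windows from 50000001 to 52000000 and from 68000001 to 70000000 were empty, and the longest peak-free stretch ran from 49028039 to 52447288 (3.42 Mb). GATA1 alone had longer gaps, of 5.97 Mb on the short arm (10750209 to 16724187) and 6.28 Mb on the long arm (48709154 to 54989790). Whether assembly gaps or unmappable sequence lie in these stretches was not tested.

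Peaks of the 2 arms were of similar width and enrichment. The median width of codanin-1 peaks was 180 bp on the short arm (95% exact interval of the median 144 to 267) and 208 bp on the long arm (189 to 230). GATA1 peaks had a median width of 143 bp (104 to 196) on the short arm and 139 bp (117 to 169) on the long arm. The minimum width of 101 bp was that of 11 of 57 short-arm (19.3%) and 87 of 446 long-arm codanin-1 peaks (19.5%). The median fold enrichment over the peak caller's background, as the authors deposited it, was 4.14 for codanin-1 on the short arm (3.95 to 4.43) and 4.02 on the long arm (3.97 to 4.07). For GATA1 it was 4.07 (3.81 to 4.27) on the short arm and 4.26 (4.20 to 4.36) on the long arm. The median −log10 q was 1.79 (1.54 to 1.97) for codanin-1 on the short arm and 1.59 (1.54 to 1.64) on the long arm, and 1.56 (1.48 to 1.86) and 1.62 (1.59 to 1.73) for GATA1. The intervals of the 2 arms overlapped in each of these 6 pairs of medians.

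Covered length followed the number of peaks. Codanin-1 peaks covered 615 bp per Mb on the short arm and 2059 bp per Mb on the long arm, a ratio of 0.299. GATA1 peaks covered 198 bp per Mb on the short arm and 383 bp per Mb on the long arm, a ratio of 0.516. The median gap from a codanin-1 peak to the nearest codanin-1 peak was 63595 bp on the short arm and 28666 bp on the long arm. For GATA1 the order was the other way, with 10607 bp on the short arm and 73084 bp on the long arm. Short-arm GATA1 peaks included a tight group of 6 between 21902229 and 21907650, a span of 5.42 kb.

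The strongest codanin-1 peak of the chromosome was on the short arm. It lay at 11481351 to 11481472, with a fold enrichment of 8.09 and a −log10 q of 8.35, and the nearest GATA1 peak was 731142 bp away. The next on the short arm were at 6445018 to 6445128 (5.69-fold) and 3796809 to 3796969 (5.08-fold), also without a GATA1 peak. On the long arm the highest were at 70469675 to 70469781 (6.11-fold), 36698341 to 36698471 (5.83-fold) and 58119782 to 58120193 (5.79-fold), and the last of these overlapped a GATA1 peak. A fold of at least 5 was reached by 4 short-arm and 25 long-arm codanin-1 peaks, or 7.02% and 5.61%, against 4.78% of the whole list. The widest codanin-1 peaks were at 67326 to 68213 (888 bp) and 965649 to 966264 (616 bp) on the short arm. On the long arm they were at 36342819 to 36343989 (1171 bp) and 41466079 to 41467133 (1055 bp).

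The GATA1 peak of highest fold on the chromosome was also on the short arm, at 122824 to 122909 near the chromosome end. It had a fold of 7.56 and a −log10 q of 8.31, below the 12.7 reached on the long arm, and overlapped a codanin-1 peak of 4.82-fold. It was the one GATA1 peak of the short arm with a fold of at least 5, and the long arm had 6 such peaks (4.92%), against 5.25% of the whole list. The next GATA1 peaks of the short arm were at 855933 to 856036 (4.74-fold) and 3571909 to 3572051 (4.70-fold). The highest on the long arm were at 72729611 to 72729672 (6.35-fold), 80824675 to 80824757 (5.80-fold) and 80544162 to 80544410 (5.57-fold), none of which overlapped a codanin-1 peak. The widest GATA1 peaks were at 21902229 to 21902879 (651 bp) and 21904504 to 21905011 (508 bp) on the short arm. On the long arm they were at 41399899 to 41401180 (1282 bp) and 41381675 to 41382438 (764 bp).

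The most significant peaks of the long arm were of low fold. On the long arm 9 GATA1 peaks had a −log10 q of 5 or more (7.38%, against 5.27% of the whole list), with folds from 2.42 to 3.98. Of these, 7 lay in the window at 45 Mb, and the other 2 were at 31149430 to 31149886 (−log10 q 9.59, 2.80-fold) and 33478131 to 33478357 (−log10 q 7.76, 2.42-fold). Codanin-1 reached that threshold at 1 peak on each arm, against 0.188% of its whole list. The short-arm peak was the 8.09-fold one described above. The long-arm peak, at 45266539 to 45266652, had a fold of 2.79 and a −log10 q of 5.90, and overlapped a GATA1 peak with a fold of 3.98 and a −log10 q of 11.0.

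The window at 45 Mb held a run of 9 GATA1 peaks between 45212935 and 45266648, a span of 53.7 kb. Their folds ran from 2.35 to 3.98 and their −log10 q from 2.21 to 12.7, the highest of the chromosome, at 45249300 to 45249368. Codanin-1 had 2 peaks in the same span, and both overlapped a GATA1 peak. The other 3 GATA1 peaks of the window, outside the run, had folds of 4.05, 4.03 and 4.25. By contrast, the 8 GATA1 peaks of the window at 34 Mb had folds from 3.84 to 4.78 and a highest −log10 q of 2.18. The 22 codanin-1 peaks of that window and the 23 of the window at 36 Mb had median folds of 3.89 and 3.88. Of either set 0 had a fold under 3, which for so few peaks is near the 1.75% of the whole codanin-1 list.

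Overlap between the lists was counted where peaks shared at least 1 bp. The short arm had 4 such sites among its 57 codanin-1 peaks, a share of 7.02% (exact interval at the 95% level 1.95 to 17). The long arm had 13 among 446, a share of 2.91% (1.56 to 4.93). Over the whole codanin-1 list the share was 6.60%. The odds ratio of short to long arm was 2.51, with an interval of 0.575 to 8.51 (two-sided Fisher's exact test, adjusted p = 0.18). Among GATA1 peaks 4 of 23 on the short arm (17.4%, 4.95 to 38.8) and 13 of 122 on the long arm (10.7%, 5.80 to 17.5) were shared, against 20.2% in the whole list. The odds ratio was 1.77 (0.377 to 6.53, two-sided Fisher's exact test, adjusted p = 0.48). Neither difference was detectable with these counts, and the intervals allow large differences either way. A GATA1 peak lay within 10 kb of 13 short-arm codanin-1 peaks (22.8%) and 64 long-arm ones (14.3%), against 3167 of 14365 (22%) in the whole codanin-1 list. A codanin-1 peak lay within 10 kb of 15 short-arm GATA1 peaks (65.2%) and 51 long-arm ones (41.8%), against 61.4% of the whole GATA1 list. The window at 21 Mb gave 8 of the 13 and 11 of the 15. Without it the short-arm shares were 5 of 40 for codanin-1 (12.5%, 95% exact interval 4.19 to 26.8) and 4 of 12 for GATA1 (33.3%, 9.92 to 65.1), both below the long-arm shares, which lie within these intervals.

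Chromosome 17 as a whole held fewer shared codanin-1 peaks than the other chromosomes, but this rested on chromosomes 9 and 22. On chromosome 17, 18 of 505 codanin-1 peaks overlapped GATA1 (3.56%), against 892 of 13809 on the others without Y and M (6.46%), an odds ratio of 0.535 (95% exact interval 0.313 to 0.860, two-sided Fisher's exact test, adjusted p = 0.016). Without chromosomes 9 and 22 the odds ratio was 0.892 (adjusted p = 0.74, Fisher's exact test). The difference passed when a GATA1 peak within 1 kb counted as shared (0.466, adjusted p = 0.00013, Fisher's exact test). Without peaks of fold under 3, an alternative chosen after seeing the data, the odds ratio was 0.353 (adjusted p = 0.00082, Fisher's exact test). That filter left 10 of the 18 shared peaks on chromosome 17 and 750 of the 892 elsewhere. Its lower ratio therefore follows from the class removed and adds no support. It did not pass with peaks within 1 kb merged (0.683), at a fold of at least 4 (0.765) or with 0.5 of both lengths shared (0.801), and the odds ratio was 1.43 when a −log10 q of at least 2 was required. The number of codanin-1 peaks per GATA1 peak was 3.22 on chromosome 17 and 2.81 on the others, an odds ratio of 1.14 (0.952 to 1.38, two-sided Fisher's exact test, adjusted p = 0.18).

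The 4 shared sites of the short arm are listed in order of position. The codanin-1 peak at 122821 to 123098 had a fold of 4.82, and its GATA1 partner 7.56. The one at 3571910 to 3572288 had a fold of 4.17, and its partner 4.70. The remaining 2, at 21323384 to 21323762 (3.86-fold, with GATA1 at 4.02) and 21904546 to 21904918 (3.20-fold, with GATA1 at 3.61), were in the window beside the centromere. In the sparse interior from 1 Mb to 21 Mb, with 7 GATA1 peaks, 1 of 34 codanin-1 peaks was shared, against 6.60% of the whole list. Counts this small cannot show a stretch without sharing.

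The 13 shared sites of the long arm had codanin-1 folds spread from 1.61 to 5.79. They are listed here on either side of a fold of 3, a cut drawn after seeing the data. The highest for codanin-1 were a pair at 58119782 to 58120193 (5.79-fold, with GATA1 at 4.39) and 58090688 to 58091120 (5.50-fold, with GATA1 at 4.95). They were followed by 36342819 to 36343989 (4.38-fold, with GATA1 at 4.43), 34584010 to 34584124 (4.20-fold, with GATA1 at 4.06) and 74678546 to 74678973 (3.94-fold, with GATA1 at 4.36). A further shared site, at 36286778 to 36287047, had a fold of 3.69, with GATA1 at 4.65. The other 7 all had a codanin-1 fold under 3, from 1.61 to 2.96, and lay at 31 Mb, 33 Mb, 41 Mb (3 sites) and 45 Mb (2 sites).

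These 7 were all the codanin-1 peaks of the long arm with a fold under 3 (1.57%, against 1.75% of the whole list). All 7 overlapped a GATA1 peak, whereas 6 of the 439 long-arm codanin-1 peaks with a fold of 3 or more did. Over the whole list 71.4% of codanin-1 peaks with a fold under 3 overlapped. With a fold of 3 or more, 750 of 13599 (5.52%) did on the other chromosomes, Y and M left out. The 2 codanin-1 peaks between the arms also had a fold under 3, and 1 of them overlapped. The class of fold under 3 was drawn after seeing the data and carries no test. Such peaks had a median −log10 q of 2.79 on the long arm, against 1.58 in the others, so they were called with more significance at less enrichment. The short arm had 0 codanin-1 peaks with a fold under 3, its lowest being 3.20. Among its 57 peaks, 0 is near the share of 1.75% in the whole list.

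GATA1 peaks with a fold under 3 behaved less uniformly. The long arm held 6 (4.92%), of which 3 overlapped codanin-1, and the short arm held 1, which did not. Between the arms 11 of the 12 GATA1 peaks had a fold under 3, and 1 of these overlapped a codanin-1 peak. Over the whole GATA1 list 5.50% of peaks had a fold under 3, and 20.8% of those overlapped a codanin-1 peak. The short-arm peak, at 21906435 to 21906721, had a fold of 2.90 and belonged to the run beside the centromere. Read depth and mappability at these positions are not in the files, and their part was not tested.

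**Figure D4:**
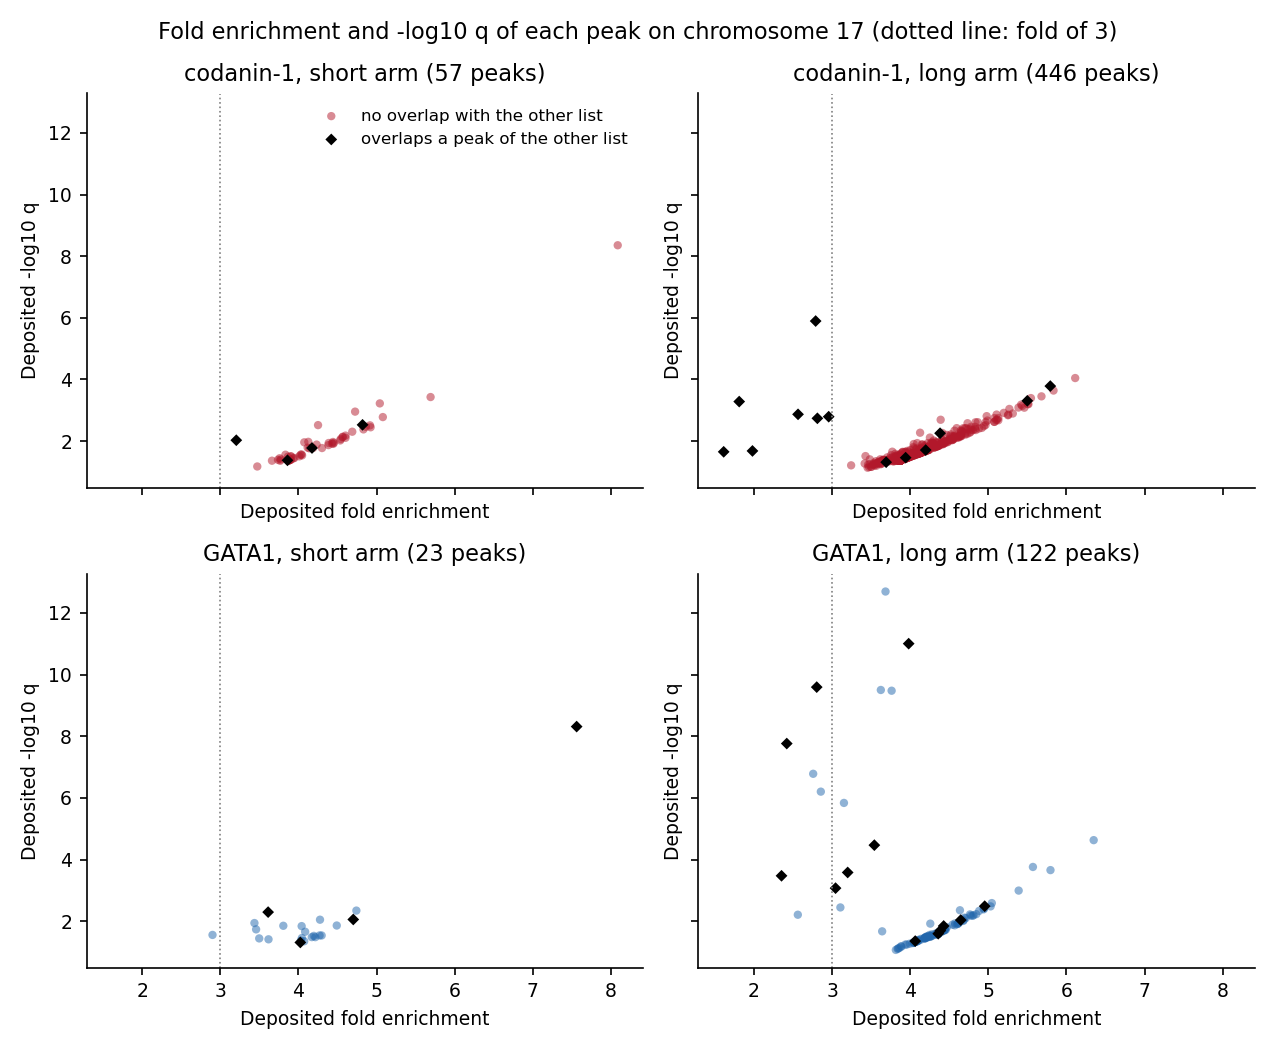
Deposited fold enrichment (x axis) against deposited −log10 q (y axis) of each peak on the short arm (left) and long arm (right), for codanin-1 (above) and GATA1 (below). Black diamonds overlap a peak of the other list, and the dotted line marks a fold of 3. On the long arm all 7 codanin-1 peaks left of the line are black, and the short-arm panel of codanin-1 has none there.

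The limits of the arms cut close to pericentromeric peaks. The last codanin-1 peak inside the short arm was at 21904546 to 21904918 (3.20-fold) and the last GATA1 peak at 21907338 to 21907650 (3.62-fold). Just outside lay 9 GATA1 peaks between 22248390 and 22261856, with folds from 1.85 to 2.30. On the other side, the nearest peaks outside the long arm were a codanin-1 peak at 25265242 to 25265434 (1.94-fold) and a GATA1 peak at 25290419 to 25290738 (3.67-fold). The first inside were a codanin-1 peak at 25322189 to 25322420 (4.86-fold) and a GATA1 peak at 26900599 to 26900664 (4.41-fold).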

How the data were processed

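ChIP-seq peak lists of 2 of the 3 libraries (codanin-1 and GATA1) were used. BWA, MACS2 and the build hg19 are named, per the submitters' processing notes, without versions or roles. Not given in the sources used here are the caller's background library and threshold, filters, and any pooling. For each peak the deposited lists give a fold enrichment (a ratio over the caller's background), a −log10 p and a −log10 q; the deposited score is derived from the −log10 q and was not used. Coordinates are written from 1.

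Peaks were assigned to an arm by midpoint. The long arm was measured to the last peak of either list (81.2 Mb), other chromosomes likewise from their start. Densities were compared with the exact conditional binomial test, 2 × 2 counts with Fisher's exact test, both two-sided, with Benjamini-Hochberg adjustment over 7 tests and a threshold of 0.05. Intervals are 95% exact. Medians were not tested. Functions were tested on simulated data.

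Peaks named are, in each list and arm, the 3 of highest fold, the 2 widest and the 1 of highest −log10 q, with shared sites, fullest and empty windows; others were named after their values were seen. The arms and rules were chosen with earlier results of these data known. Python 3.11.15, numpy 2.4.6, scipy 1.17.1, pandas 2.3.3, statsmodels 0.14.6 and matplotlib 3.10.9 were used.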

Additional observations from a re-analysis of the deposited data

Results flagged for a closer look

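Between the limits of the arms, in a region that the comparisons of the arms, as reported, leave out, the GATA1 list had 12 peaks and the codanin-1 list 2. The counts were not tested against each other. Of the 12 GATA1 peaks 9 formed a run of 13.5 kb between 22248390 and 22261856, with folds from 1.85 to 2.30 and −log10 q from 1.65 to 4.97. The nearest codanin-1 peak to that run was 343471 bp away. The other 3 lay between 25265172 and 25290738, with folds of 2.27, 1.99 and 3.67, and the first of them overlapped a codanin-1 peak of 1.94-fold. Repeats and mappability beside the centromere were not tested.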

How the results depend on the processing

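Each result was recomputed with 1 choice changed at a time, which gave 53 alternative values with a test, and 38 of them kept their direction and their side of the threshold. The 8 others, for medians and covered length, have no test. The alternatives without peaks of fold under 3 and with pericentromeric peaks counted by the nearer arm were chosen after seeing the data. The codanin-1 density ratio of the arms kept both under the 8 alternatives with a test (0.226 to 0.493, adjusted p at most 0.026, exact binomial test). The GATA1 ratio ran from 0.180 to 0.643, and it lost the threshold once a −log10 q of 2 was required (0.340). The odds ratio of arm by list was 1.45 at that q and 1.25 without the chromosome ends and centromere flanks, the opposite direction to the reported value, and it passed at 0.497 with pericentromeric peaks counted by the nearer arm. For overlap by arm, the codanin-1 odds ratio was 0.935 without the ends and flanks and 5.45 without peaks of fold under 3, a value set by its construction, which takes away 7 of the 13 long-arm shared sites and 0 of the 4 short-arm ones, and the GATA1 odds ratio was 0.879 with 0.5 of both lengths shared. For chromosome 17 against the others, the overlap odds ratio lost the threshold at a fold of at least 4 (0.765), with merged peaks (0.683), with 0.5 of both lengths (0.801) and without chromosomes 9 and 22 (0.892). It passed at 0.466 within 1 kb and was 1.43 where the −log10 q had to reach 2. Without peaks of fold under 3 it passed at 0.353, a value that follows from the shared peaks this filter takes away. The codanin-1 to GATA1 odds ratio there was 0.960 at that q and 0.968 without chromosomes 9 and 22, the opposite direction to the reported value. Without peaks of fold under 3 it passed at 1.23 (1.01 to 1.50, adjusted p = 0.046, two-sided Fisher's exact test). That filter, chosen after seeing the data, left 139 of 157 GATA1 peaks on chromosome 17 and 4688 of 4914 elsewhere. Thresholds and shared lengths leave fewer peaks to count, and the causes of these changes were not tested. Median GATA1 width differed by 4 bp between short and long arm, and by -20 bp among peaks without overlap. No paired analysis was possible because there is a single library for every antibody, so none could be left out either. Sites of either protein below the caller's threshold cannot be counted, since depth is unknown.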

Other observations

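The start of the long arm, from 25.3 Mb to 28 Mb, held 32 codanin-1 peaks (11.9 per Mb, 95% exact Poisson interval 8.11 to 16.7) and 3 GATA1 peaks (1.11 per Mb, 0.229 to 3.25), or 10.7 codanin-1 peaks per GATA1 peak. None of the 32 overlapped a GATA1 peak, which is near the 2.91% of all long-arm codanin-1 peaks that did. Across the centromere, the last 1.2 Mb of the short arm held 17 codanin-1 peaks (14.2 per Mb, 8.25 to 22.7) and 11 GATA1 peaks (9.17 per Mb, 4.58 to 16.4), or 1.55 codanin-1 peaks per GATA1 peak, with 2 shared sites. Of these 11 GATA1 peaks, 6 formed 1 run of 5.42 kb, which the interval counts as independent sites. Both stretches were chosen after seeing the data, so their intervals cannot serve as a comparison, and the difference between the flanks was not tested.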
